A study of Homo sapiens with 15 samples.

Results

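The EMT-inducing transcription factors ZEB1, ZEB2, SNAI1, SNAI2, TWIST1, and TWIST2 were followed through the 5 conditions of an RNA sequencing series of EGFR-mutant lung adenocarcinoma cells. They were chosen by symbol from the ZEB, Snail, and Twist families, and all 6 are among the 19612 gene symbols measured. Of the 6, 4 had counts and were tested, whereas TWIST1 and TWIST2 had no counts in any library. H1975 cells carry the EGFR mutations T790M and L858R, and H1975–OR is the osimertinib-resistant sub-line raised from them by long exposure to that EGFR inhibitor. The 15 libraries are 3 of H1975 given vehicle (Samples 1a, 1b, and 1c) and 12 of H1975–OR, 3 each given vehicle (2a, 2b, and 2c), 100 nM 1,25(OH)2D3 (3a, 3b, and 3c), 500 nM osimertinib (4a, 4b, and 4c), or both agents at those doses (5a, 5b, and 5c). 1,25(OH)2D3 is the hormonally active form of vitamin D3. All cells, the vehicle arms included, spent 96 h in charcoal-stripped serum with treatment applied at 0, 48, and 92 h, and H1975–OR cells were otherwise kept in 500 nM osimertinib, and their vehicle and 1,25(OH)2D3 arms are read here, from the listed contents of the treatment media, as without the inhibitor for that time. Each condition came from 3 passages. There is no osimertinib arm of H1975, and whether H1975–OR descends from 1 clone is not given in the sources used here.

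In epithelial–mesenchymal transition (EMT), epithelial cells lose their junctions and polarity and take on a motile, fibroblast-like state. ZEB1 and ZEB2 are zinc finger homeobox proteins and SNAI1 (Snail) and SNAI2 (Slug) zinc finger proteins that bind E-box sequences in the promoters of E-cadherin and other epithelial genes and repress them. TWIST1 and TWIST2 are basic helix-loop-helix proteins that act on the same program, and the miR-200 microRNAs repress ZEB1 and ZEB2, which in turn repress the miR-200 genes.

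Library totals of the estimated counts ran from 4378030 to 6140120 (median 4974785). Levels are given as CPM, counts of a gene relative to the library total as scaled by edgeR's TMM factors over all 15 libraries, and errors between libraries are SD. The study set Sample 3a aside for its atypical expression. It was likewise left out of the means and tests, so that 1,25(OH)2D3 alone has n = 2, and its levels are given beside the results for 1,25(OH)2D3 alone. Of 6 carcinoma epithelial markers, KRT18 was at 1779 CPM or more, KRT7 at 452.3, KRT8 at 303.1, EGFR at 103.3, and KRT19 at 98.0 CPM or more in every library. The means of KRT19, EPCAM, KRT7, and EGFR were lower in each H1975–OR condition than in H1975. KRT19 was at 1144 CPM in H1975 and 135.9 to 553.8 CPM in the H1975–OR conditions, and EPCAM at 151.6 CPM and 6.76 to 11.6 CPM. KRT7 was at 1460 CPM and 526.2 to 975.9 CPM, and EGFR at 243.0 CPM and 121.7 to 212.0 CPM. KRT18 was higher in each condition, and KRT8 was higher with both agents and lower in the others. Present in every library was the lung lineage factor NKX2-1, at 31.9 CPM or more. The lung lineage markers NAPSA and SFTPB did not exceed 13 and 10 counts. Of markers of other cell types, CD3E had no count, PTPRC did not exceed 2.12 CPM, PECAM1 did not exceed 4.19 CPM, CDH5 reached 11.6 CPM, and DCN reached 3.02 CPM. The fibroblast gene LUM had no count in H1975 and reached 14.04 CPM in H1975–OR, and its part in the results was not tested. In these bulk libraries, fewer cells of a type and less RNA per cell cannot be told apart.

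The ZEB mRNAs carry matches to the miR-200 seeds, so the sequences of the 5 human family members are shown here as RefSeq gives them for GRCh38.p14, 5′ to 3′, with bases 2 to 8, the seed, in capitals. The first 3 share the seed AAUACUG and the last 2 the seed AACACUG.
hsa-miR-200b-3p: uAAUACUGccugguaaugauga
hsa-miR-200c-3p: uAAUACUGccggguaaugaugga
hsa-miR-429: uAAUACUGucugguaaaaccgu
hsa-miR-200a-3p: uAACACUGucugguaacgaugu
hsa-miR-141-3p: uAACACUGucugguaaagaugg
miR-200b-3p, miR-200a-3p, and miR-429 lie on chromosome 1, at chr1:1167160-1167181, chr1:1167916-1167937, and chr1:1169055-1169076, and miR-200c-3p and miR-141-3p on chromosome 12, at chr12:6963742-6963764 and chr12:6964155-6964176, all on the plus strand. These RNAs and their host genes were not analysed here.

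The DNA letters that pair with the seeds are CAGTATT and CAGTGTT. In the 3′ UTR of the canonical transcript (GENCODE release 44), ZEB1 held 9 such matches in 2540 bases, 6 of CAGTATT and 3 of CAGTGTT. ZEB2 held 9 in 5370 bases, 5 of CAGTATT and 4 of CAGTGTT. SNAI2 held 1 match in 1209 bases, and SNAI1, TWIST1, and TWIST2 held none. As background, 27.4% of 3′ UTRs trimmed to the length of ZEB1 held CAGTATT and 30% held CAGTGTT, and 47.5% and 50.8% did so at the length of ZEB2. A match is a description of the letters and not a measured site. For each ZEB gene, the match to each seed nearest the stop codon is shown as the 23 bases around it on the mRNA strand in GRCh38, with the seed match in capitals.
ZEB1 chr10:31527618-31527640: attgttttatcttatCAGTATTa
ZEB1 chr10:31528031-31528053: caaaatcatcagaatCAGTGTTt
ZEB2 chr2:144389052-144389074: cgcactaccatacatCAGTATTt
ZEB2 chr2:144389236-144389258: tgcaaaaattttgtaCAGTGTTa

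E-boxes of the kind bound by ZEB and Snail proteins read CACCTG, which on the opposite strand is CAGGTG. RefSeq promoter windows of GRCh38.p14, from 250 bases before to 50 bases after a transcription start, were searched for both spellings. Of 35116 windows of all genes, 20.6% held at least 1. A window was given for 10 of 20 genes that are commonly listed as repressed by these factors, and 9 of the 10 genes held the motif in any window, beside 24.1% of all symbols, as did 11 of their 14 windows. The list names targets of factors that bind E-boxes, so its share is not independent of the motif. CDH1, EPCAM, ST14, ESRP1, and GRHL2 are among the listed genes for which no window was given. The windows of MUC1 overlap each other, as do those of OCLN. Among the factors themselves, windows were given for ZEB1, ZEB2, and TWIST2. The motif was found in 2 of 7 ZEB1 windows and in neither the ZEB2 nor the TWIST2 window. The ZEB1 window with the most motifs, 3, is shown with those of 3 of the listed targets. These are CLDN7, a tight junction claudin (5 motifs), CRB3, a polarity protein (5 motifs), and RAB25, an epithelial trafficking GTPase (2 motifs). The other window of CLDN7 held 0 motifs. The sequences run 5′ to 3′ along the strand of the gene, which is the minus strand for CLDN7, with the motifs in capitals, and factor binding was not measured in this series.
ZEB1 chr10:31318966-31319265: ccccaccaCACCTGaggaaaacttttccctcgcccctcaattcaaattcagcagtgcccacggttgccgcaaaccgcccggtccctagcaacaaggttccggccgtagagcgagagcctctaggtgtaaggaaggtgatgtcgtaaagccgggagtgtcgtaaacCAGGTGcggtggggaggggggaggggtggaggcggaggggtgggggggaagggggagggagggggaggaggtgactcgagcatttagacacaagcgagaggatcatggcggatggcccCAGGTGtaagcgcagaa
CLDN7 chr17:7262429-7262728: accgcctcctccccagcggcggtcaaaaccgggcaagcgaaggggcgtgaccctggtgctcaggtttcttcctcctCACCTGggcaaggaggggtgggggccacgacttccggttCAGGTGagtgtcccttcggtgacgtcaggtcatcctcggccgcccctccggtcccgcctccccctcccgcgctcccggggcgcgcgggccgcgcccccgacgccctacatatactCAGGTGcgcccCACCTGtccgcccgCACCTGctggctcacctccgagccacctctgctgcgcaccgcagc
CRB3 chr19:6464021-6464320: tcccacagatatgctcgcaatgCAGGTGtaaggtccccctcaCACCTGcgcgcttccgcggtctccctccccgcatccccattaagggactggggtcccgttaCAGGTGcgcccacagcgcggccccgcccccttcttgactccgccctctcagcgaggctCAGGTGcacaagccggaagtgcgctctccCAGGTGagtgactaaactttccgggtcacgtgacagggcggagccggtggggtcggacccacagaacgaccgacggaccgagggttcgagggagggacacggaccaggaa
RAB25 chr1:156060910-156061209: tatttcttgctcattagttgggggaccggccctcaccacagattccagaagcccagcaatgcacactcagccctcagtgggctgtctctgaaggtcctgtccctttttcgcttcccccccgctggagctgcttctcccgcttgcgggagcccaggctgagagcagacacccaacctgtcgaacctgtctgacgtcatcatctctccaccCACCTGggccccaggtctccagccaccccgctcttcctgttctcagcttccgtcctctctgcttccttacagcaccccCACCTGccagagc

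In vehicle-treated H1975–OR compared with vehicle-treated H1975, the ZEB mRNAs were higher and the Snail mRNAs lower. The sub-line also differs in its long culture with osimertinib and in 96 h read as without it. Resistance cannot be told apart from these. All 4 measured factors had an adjusted p under 0.05 by the quasi-likelihood test of edgeR (Benjamini-Hochberg adjustment over 12513 genes), where 20.1% of all genes tested had one (9.89% higher and 10.3% lower). In all 4 the libraries of the groups did not overlap, which was so for 39.2% of all genes (19% higher and 20.3% lower).

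ZEB2 (chr2:144364364-144521057 in GRCh38, minus strand, 10 exons in the canonical transcript) gave the steadiest change. Its level was 7.28, 7.47, and 5.09 CPM in H1975 Samples 1a, 1b, and 1c. It was 29.5, 35.6, and 32.4 CPM in H1975–OR Samples 2a, 2b, and 2c. The lowest H1975–OR library thus lay well above the highest H1975 library. The means were 6.61 ± 1.32 CPM (SD, n = 3) and 32.5 ± 3.06 CPM (SD, n = 3), a 4.93-fold rise (log2 fold change 2.30 ± 0.21 SE, 95% interval 1.82 to 2.79, adjusted p = 0.00048).

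ZEB1 (chr10:31318495-31529814, plus strand, 9 exons) rose as well, but with a wide spread between libraries of each line. It stood at 8.14, 1.82, and 1.22 CPM in Samples 1a, 1b, and 1c. In Samples 2a, 2b, and 2c it stood at 9.41, 51.3, and 31.4 CPM, so that Sample 2a lay barely above Sample 1a. The means were 3.73 ± 3.83 CPM and 30.7 ± 20.9 CPM (SD, n = 3 each), an 8.14-fold difference (log2 fold change 3.02 ± 0.81 SE, 95% interval 1.18 to 4.87, adjusted p = 0.0318). The call did not hold when Sample 1b, 1c, 2b, or 2c was left out, with adjusted p of 0.108, 0.0932, 0.104, and 0.0676. It also did not hold with Sample 3a kept in (adjusted p = 0.0553) or with the replicate letter as a block (adjusted p = 0.0893).

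SNAI2 (chr8:48917598-48921740, minus strand, 3 exons) moved the other way. Its level was 16.6, 23.3, and 21.8 CPM in Samples 1a, 1b, and 1c and 10.4, 9.93, and 7.13 CPM in Samples 2a, 2b, and 2c. Every H1975–OR vehicle library lay below every H1975 library. The mean went from 20.6 ± 3.51 CPM to 9.17 ± 1.78 CPM (SD, n = 3 each), which was 2.22-fold lower (log2 fold change −1.15 ± 0.26 SE, 95% interval −1.73 to −0.57, adjusted p = 0.0153). Without Sample 1b the adjusted p was 0.0612, and with all 14 libraries in one fit it was 0.0835.

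SNAI1 (chr20:49982980-49988886, plus strand, 3 exons) lay at 16.1, 23.5, and 21.6 CPM in Samples 1a, 1b, and 1c and at 10.8, 13.0, and 11.2 CPM in Samples 2a, 2b, and 2c. Its mean was 20.4 ± 3.84 CPM in H1975 and 11.7 ± 1.18 CPM in H1975–OR (SD, n = 3 each), 1.72-fold lower, and the call sat at the threshold (log2 fold change −0.79 ± 0.24 SE, 95% interval −1.33 to −0.24, adjusted p = 0.0497). In 10 of 14 alternative analyses the adjusted p was above 0.05, reaching 0.151 without Sample 1b. Without Sample 1c, 2a, 2b, or 2c it was 0.115, 0.0842, 0.0912, and 0.124.

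TWIST1 (chr7:19020991-19117636, minus strand) and TWIST2 (chr2:238848032-238910534, plus strand) had 0 counts in 15 of 15 libraries. A count of 0 allows up to 3 counts, which is between 0.477 and 0.708 CPM among the libraries, and covers counting error only. They were among 2281 of the 19612 symbols (11.6%) with no count in any library.

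**Figure D1:**
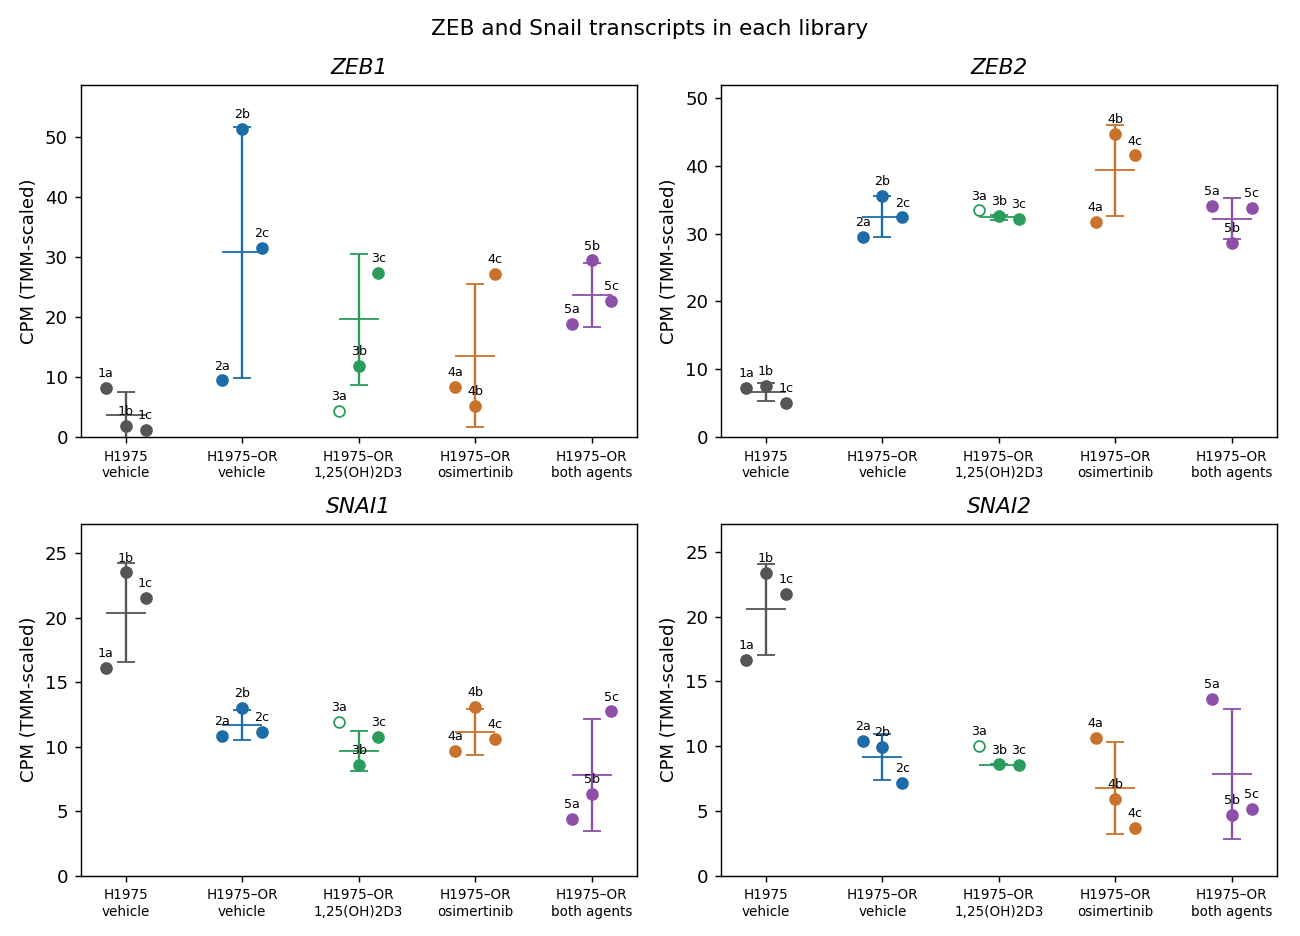
Level of each detected factor in CPM (TMM-scaled, linear axis from 0) in the 15 libraries, labelled by sample and grouped by condition. Bars give the mean and SD of each condition without Sample 3a, which is drawn as an open point. ZEB2 separates H1975 from every H1975–OR library, ZEB1 scatters from 5.12 to 51.3 CPM among the 11 H1975–OR libraries used, and SNAI1 and SNAI2 are highest in the 3 H1975 libraries.

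Levels of different genes were compared only per kb of canonical transcript, which was 5937 bases for ZEB1, 9265 for ZEB2, 1705 for SNAI1, and 2180 for SNAI2. In H1975, SNAI1 (11.97 ± 2.25 CPM per kb) and SNAI2 (9.44 ± 1.61 CPM per kb) stood far above ZEB2 (0.714 ± 0.143 CPM per kb) and ZEB1 (0.628 ± 0.646 CPM per kb), each SD over n = 3. In vehicle-treated H1975–OR the 4 lay closer together, with SNAI1 at 6.85 ± 0.690, ZEB1 at 5.17 ± 3.53, SNAI2 at 4.204 ± 0.815, and ZEB2 at 3.51 ± 0.330 CPM per kb (SD, n = 3 each). The sum of the ZEB levels per kb divided by the sum of the Snail levels per kb was 0.126, 0.0455, and 0.0333 in Samples 1a, 1b, and 1c. In Samples 2a, 2b, and 2c the ratio was 0.428, 1.02, and 0.894. Over all 12 H1975–OR libraries it ran from 0.373 (Sample 3a) to 1.37 (Sample 5b), so no H1975–OR library reached down to the H1975 range. SNAI1 remained the most abundant factor per kb in 2 of the 3 vehicle-treated H1975–OR libraries, Samples 2a and 2c.

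**Figure D2:**
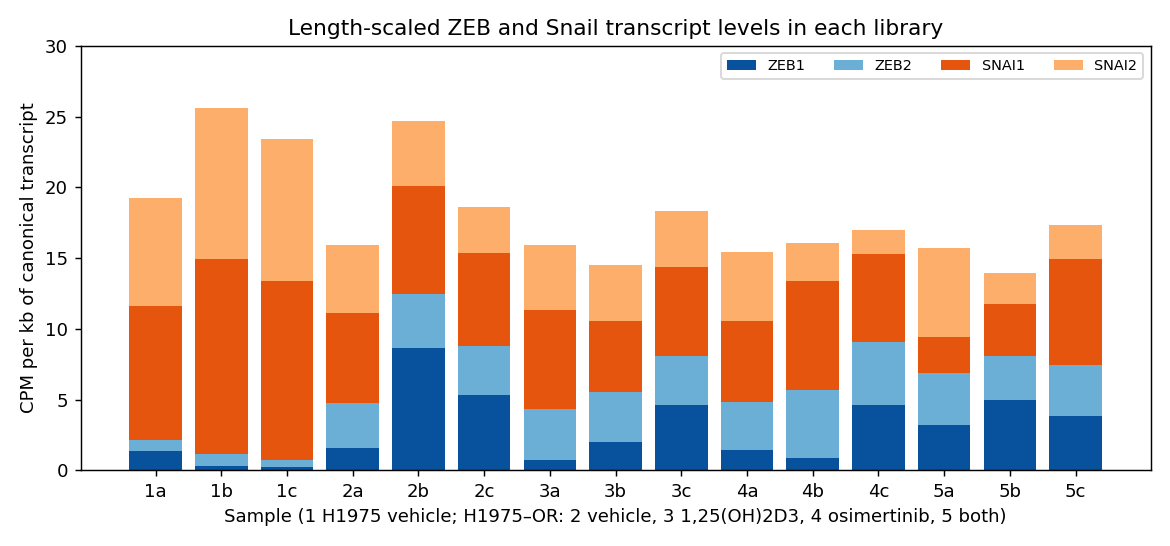
Stacked bars of CPM per kb of canonical transcript for ZEB1, ZEB2, SNAI1, and SNAI2 in each of the 15 libraries, Sample 3a included. The Snail genes fill nearly the whole bar in Samples 1a, 1b, and 1c, and the ZEB genes take a larger part in every H1975–OR library, with a ratio of ZEB to Snail from 0.373 to 1.37 against 0.0333 to 0.126 in H1975.

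1,25(OH)2D3 alone was compared with vehicle in H1975–OR to ask whether the hormone moved these factors, and none of the 4 passed the test, beside 0.152% of all genes (19 of 12513, all higher). None of the 4 had an unadjusted p under 0.05, as 7.27% of all genes did, and DESeq2 called none of them. ZEB2 was 32.7 and 32.2 CPM in Samples 3b and 3c, within the range of vehicle, with a log2 difference of −0.0023 (95% interval −0.50 to 0.50). ZEB1 was 11.8 and 27.3 CPM, also inside the vehicle range of 9.41 to 51.3 CPM, and its interval was wide (log2 difference −0.64, 95% interval −2.51 to 1.22). SNAI2 was 8.59 and 8.55 CPM (log2 difference −0.09, 95% interval −0.76 to 0.57). SNAI1, at 8.59 and 10.8 CPM, lay below all 3 vehicle libraries, as 12.3% of all genes did, with a log2 difference of −0.27 (95% interval −0.89 to 0.36). The omitted Sample 3a held 4.29 CPM of ZEB1, below every library of the vehicle group, 33.4 CPM of ZEB2, 11.9 CPM of SNAI1, and 10.0 CPM of SNAI2.

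Osimertinib at 500 nM, compared with vehicle, left no factor with an adjusted p under 0.05, beside 0.048% of all genes (6 of 12503, and 35 with the replicate letter as a block). None had an unadjusted p under 0.05, as 7.53% of all genes did, and all 4 overlapped with vehicle, whereas 12.8% of all genes did not overlap. ZEB1 was 8.37, 5.12, and 27.2 CPM in Samples 4a, 4b, and 4c, a mean of 13.6 ± 11.9 CPM (SD, n = 3), with a log2 difference from vehicle of −1.17 (95% interval −2.67 to 0.32). ZEB2 was 31.8, 44.6, and 41.5 CPM, a mean of 39.3 ± 6.71 CPM (log2 difference 0.28, 95% interval −0.09 to 0.65). ZEB1 thus had 2 of 3 libraries below the vehicle group and ZEB2 had 2 of 3 above it. SNAI1, at 9.70, 13.1, and 10.6 CPM, differed from vehicle by −0.06 on the log2 scale (95% interval −0.87 to 0.74). SNAI2 spread over 10.7, 5.94, and 3.68 CPM (log2 difference −0.43, 95% interval −1.52 to 0.67).

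Adding 1,25(OH)2D3 to osimertinib likewise gave no call among the 4 factors, beside 0.096% of all genes (12 of 12503, and 33 with the block). None had an unadjusted p under 0.05 (4.16% of all genes), and all 4 overlapped with osimertinib alone (7.93% of all genes did not). With both agents, Samples 5a, 5b, and 5c held 18.8, 29.4, and 22.6 CPM of ZEB1, which was the narrowest spread of ZEB1 among the H1975–OR conditions with n = 3 (23.6 ± 5.33 CPM, SD). ZEB2 was 34.1, 28.7, and 33.7 CPM (32.2 ± 3.03 CPM). Against osimertinib alone, the log2 differences were 0.79 for ZEB1 (95% interval −0.71 to 2.29) and −0.30 for ZEB2 (95% interval −0.67 to 0.073). SNAI1 was 4.41, 6.35, and 12.7 CPM (7.83 ± 4.36 CPM, SD, n = 3), with 2 of the 3 libraries below all of osimertinib alone (log2 difference −0.52, 95% interval −1.34 to 0.30). SNAI2 was 13.6, 4.70, and 5.19 CPM (7.84 ± 5.02 CPM), where Sample 5a lay above the other two (log2 difference 0.21, 95% interval −0.89 to 1.31).

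Against vehicle, both agents together gave log2 differences of −0.38 for ZEB1 (95% interval −1.85 to 1.09), −0.02 for ZEB2 (95% interval −0.39 to 0.35), −0.59 for SNAI1 (95% interval −1.41 to 0.23), and −0.22 for SNAI2 (95% interval −1.31 to 0.87). None of the 4 was called, beside 0.496% of all genes (62 of 12503, and 461 with the block), and none had an unadjusted p under 0.05 (12.5% of all genes). All 4 overlapped with vehicle, whereas 16.3% of all genes did not. These comparisons share the vehicle or osimertinib libraries and are not independent of each other. The effect of 1,25(OH)2D3 was also compared between presence and absence of osimertinib, and no gene was called (0%, 0 of 12503 by edgeR's quasi-likelihood test, with 330, or 2.64%, at an unadjusted p under 0.05 and 11 called by DESeq2). The difference of effects was 1.43 for ZEB1 (95% interval −0.82 to 3.69), −0.29 for ZEB2 (95% interval −0.85 to 0.26), −0.25 for SNAI1 (95% interval −1.47 to 0.97), and 0.30 for SNAI2 (95% interval −1.34 to 1.95). The intervals of ZEB1, SNAI1, and SNAI2 left room for changes of 2-fold and more in most of these treatment comparisons, whereas those of ZEB2 did not reach 1 on the log2 scale in any of them.

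**Figure D3:**
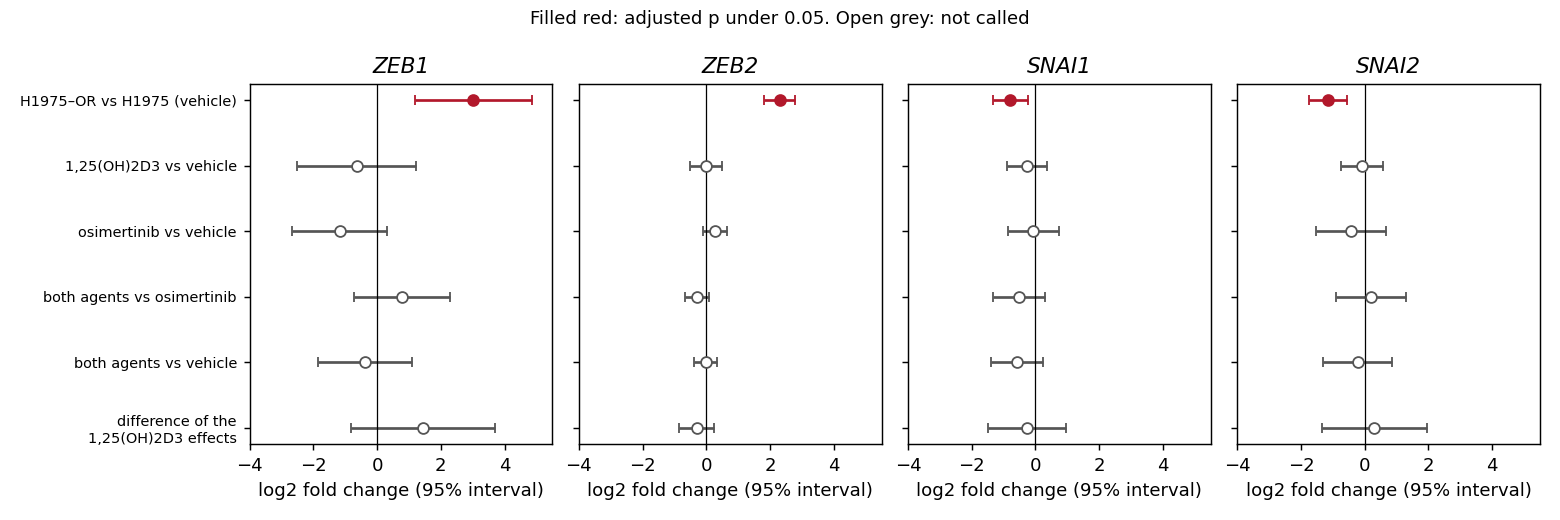
Log2 fold change with its 95% interval (points and bars) for each detected factor in the 6 comparisons, from edgeR's quasi-likelihood test. Filled red points have an adjusted p under 0.05, which among the 6 comparisons is so only for H1975–OR against H1975, and open grey points do not. ZEB1 has the widest intervals and ZEB2 the narrowest.

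Ordered by mean, ZEB2 was highest with osimertinib and then nearly level in the other H1975–OR conditions, and only the step down to H1975 had no overlap between neighbouring ranges. SNAI1 and SNAI2 were highest in H1975, and the step from H1975 to vehicle-treated H1975–OR was their only step without overlap. ZEB1 ran from vehicle-treated H1975–OR through both agents, 1,25(OH)2D3, and osimertinib to H1975, with overlap at every step. Over the 11 H1975–OR libraries, the coefficient of variation was 60.8% for ZEB1, 37.6% for SNAI2, 27.2% for SNAI1, and 14.1% for ZEB2. Within those 11 libraries, the pairwise Pearson r of log2(CPM + 2) between the factors lay between −0.35 (ZEB2 and SNAI2) and 0.37 (ZEB2 and SNAI1), as a description.

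The genes whose log2(CPM + 2) pattern over the 14 libraries was most like that of each factor were sought among 9428 genes with a mean of at least 10 CPM. For ZEB1 they were RMND1 (Pearson r = 0.91) and IKBIP (0.89), and within the 11 H1975–OR libraries r was 0.85 and 0.78. For ZEB2 they were LYPD6 and PLAC8 (0.98 each), and within H1975–OR r was 0.57 and 0.48, so the likeness rested in large part on the difference between the lines. SNAI1 was most like FOPNL and H1FX (0.93 each, and 0.84 and 0.89 within H1975–OR), and SNAI2 most like SLC5A6 and MISP (0.96 each, and 0.93 and 0.91). These values are descriptions over libraries that share lines, depth differences, and replicate letters.

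Among 20 genes listed as repressed by these factors, all were tested between the lines, and 10 were lower and 1 higher in H1975–OR, beside 10.3% and 9.89% of all genes. Their median log2 fold change was −1.79, also with genes at or under 3 counts set to their bound, against 0.0061 over all genes tested. Over the 14 alternatives 4 to 12 were lower, with the 4 among 11 tested when at least 10 counts in every library were required. Of the 20, 4 had 3 counts or fewer in every vehicle-treated H1975–OR library (CLDN7, RAB25, ESRP1, and GRHL2). They passed the filter through H1975, so lower was the only direction open to them. CDH1, which encodes E-cadherin, was 107.8, 238.8, and 383.6 CPM in Samples 1a, 1b, and 1c and 9.41, 6.20, and 5.21 CPM in Samples 2a, 2b, and 2c (log2 fold change −5.11 ± 0.50 SE, adjusted p = 0.000557). EPCAM, an epithelial adhesion molecule, went from 151.6 ± 68.5 CPM to 11.6 ± 1.96 CPM (SD, n = 3 each, log2 fold change −3.69, adjusted p = 0.000596), and ST14, the membrane protease matriptase, from 75.6 ± 35.7 CPM to 2.07 ± 0.757 CPM (log2 fold change −5.15, adjusted p = 0.00048). RAB25 had 11 to 29 counts in the H1975 libraries and none in H1975–OR, and was at least 6.82-fold lower in the vehicle group against a floor of 3 counts per library. CLDN7, whose promoter is shown above, had 48 to 284 counts in H1975 and 0 to 3 in vehicle-treated H1975–OR, and CRB3 was 9.77 ± 4.96 CPM and 0.989 ± 0.677 CPM (adjusted p = 0.0104). Of the 20 targets, 9 were not called, and 3 had a log2 fold change above 0. KRT18, a keratin that remains in many carcinoma cells, was the 1 called higher, from 1899 ± 136.0 to 2445 ± 108.6 CPM (log2 fold change 0.38, adjusted p = 0.0328). That call held in 6 of 14 alternative analyses and was lost without Sample 1a, 1b, 1c, 2b, or 2c (adjusted p up to 0.119).

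Transcription and splicing factors of the epithelial state were next. Of 13 listed, 11 were tested, 7 were lower, and none was higher in H1975–OR (63.6% called, beside 20.1% of all genes). Of the 11, 7 had 3 counts or fewer in every vehicle-treated H1975–OR library. These 7 passed the filter through H1975, so lower was the only direction open to them. Over the 14 alternatives 2 to 9 of the list were lower, with 2 of 3 tested when at least 10 counts in every library were required, 4 without Sample 1c, and 9 without Sample 1a. The median log2 fold change of the list was −4.30, and −2.39 with the 7 genes at their bound. GRHL2, a grainyhead factor that activates epithelial genes and opposes ZEB1, had 126 to 314 counts in H1975 and 0 to 2 in vehicle-treated H1975–OR. ESRP1, the epithelial splicing regulator and itself a ZEB1 target, had 213 to 469 counts against 0 to 1. OVOL1 had 31 to 99 against 0 to 3, and FOXA2 had 18 to 45 against 0 to 2. GRHL2 and ESRP1 belong to both lists.

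CDH1 was the gene of the repressed list called as higher in each of 3 comparisons of a 1,25(OH)2D3 arm with an arm without it. The measured factors were not called there, and the intervals of ZEB1 were wide. CDH1 was called as 1 of 20 genes tested with 1,25(OH)2D3 alone, 1 of 15 when 1,25(OH)2D3 was added to osimertinib, and 1 of 2 among 15 with both agents against vehicle. The shares of all genes called in these comparisons were 0.152%, 0.096%, and 0.496%. Its level was 107.8 and 151.7 CPM in Samples 3b and 3c (log2 fold change 4.22 ± 0.51 SE, adjusted p = 0.0240), and Sample 3a held 105.9 CPM. With both agents it was 68.0, 44.4, and 39.6 CPM, against 6.66, 4.91, and 2.45 CPM with osimertinib alone (log2 fold change 3.42 ± 0.37 SE, adjusted p = 0.00929) and against vehicle (log2 fold change 2.86 ± 0.36 SE, adjusted p = 0.0120). The groups did not overlap in any of these comparisons. Of all genes, 7.93% did not overlap between both agents and osimertinib, and 16.3% did not between both agents and vehicle. With 1,25(OH)2D3 alone, 12.3% of all genes lay below every vehicle library, and the share above is not given here. The call for 1,25(OH)2D3 alone was lost with any 1 of the 5 libraries of that comparison left out (adjusted p 0.0593 to 0.0977) and under the block (adjusted p = 0.133). That against osimertinib was lost without Sample 4b (adjusted p = 0.0761), and that of both agents against vehicle without Sample 2b or 2c (adjusted p of 0.0904 and 0.0905). In the compared groups alone, both calls were lost (adjusted p of 0.103 and 0.0510). ESRP1 had 0 to 1 counts and GRHL2 0 to 2 counts in the H1975–OR libraries of all 4 conditions, Sample 3a left out. EPCAM lay between 1.18 and 12.7 CPM in the H1975–OR libraries and was not called in a treatment comparison. With both agents against vehicle, PATJ, a polarity scaffold, was also called, at 86.6 ± 15.4 and 44.4 ± 4.77 CPM (SD, n = 3 each, log2 fold change 0.96, adjusted p = 0.0398), and 7 of 14 alternatives kept that call, which was lost without Sample 2b, 2c, 5b, or 5c (adjusted p up to 0.194), with Sample 3a kept in (0.0506), with all 14 libraries in one fit (0.0683), and in the compared groups alone (0.147). CLDN4, a tight junction claudin named here after its values were seen, did not pass the test in a comparison with 1,25(OH)2D3. Its groups did not overlap in any of the 3. For both agents against osimertinib and against vehicle, the shares of all genes are those given for CDH1. For 1,25(OH)2D3 alone, the share above vehicle is not given here. CLDN4 was thus picked for its values, and its lack of overlap is a description only. The level of CLDN4 was 39.5, 65.1, and 52.4 CPM in vehicle Samples 2a, 2b, and 2c, 105.5 and 79.0 CPM in Samples 3b and 3c, and 92.4 CPM in Sample 3a. It was 46.8, 61.2, and 45.4 CPM with osimertinib alone and 101.1, 87.9, and 106.9 CPM with both agents. The log2 differences were 0.82 with 1,25(OH)2D3 alone (adjusted p = 0.742), 0.94 on adding it to osimertinib (adjusted p = 0.328), and 0.91 with both agents against vehicle (adjusted p = 0.103). With the block, CLDN4 and the epithelial factor ELF3 were also called as higher with both agents against vehicle. There 283 of all 12503 genes tested were higher and 178 lower. Osimertinib alone gave no call in either list, with 15 of the 20 repressed genes and 4 of the 13 epithelial factors tested. The other genes did not pass the count filter in the H1975–OR libraries.

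**Figure D4:**
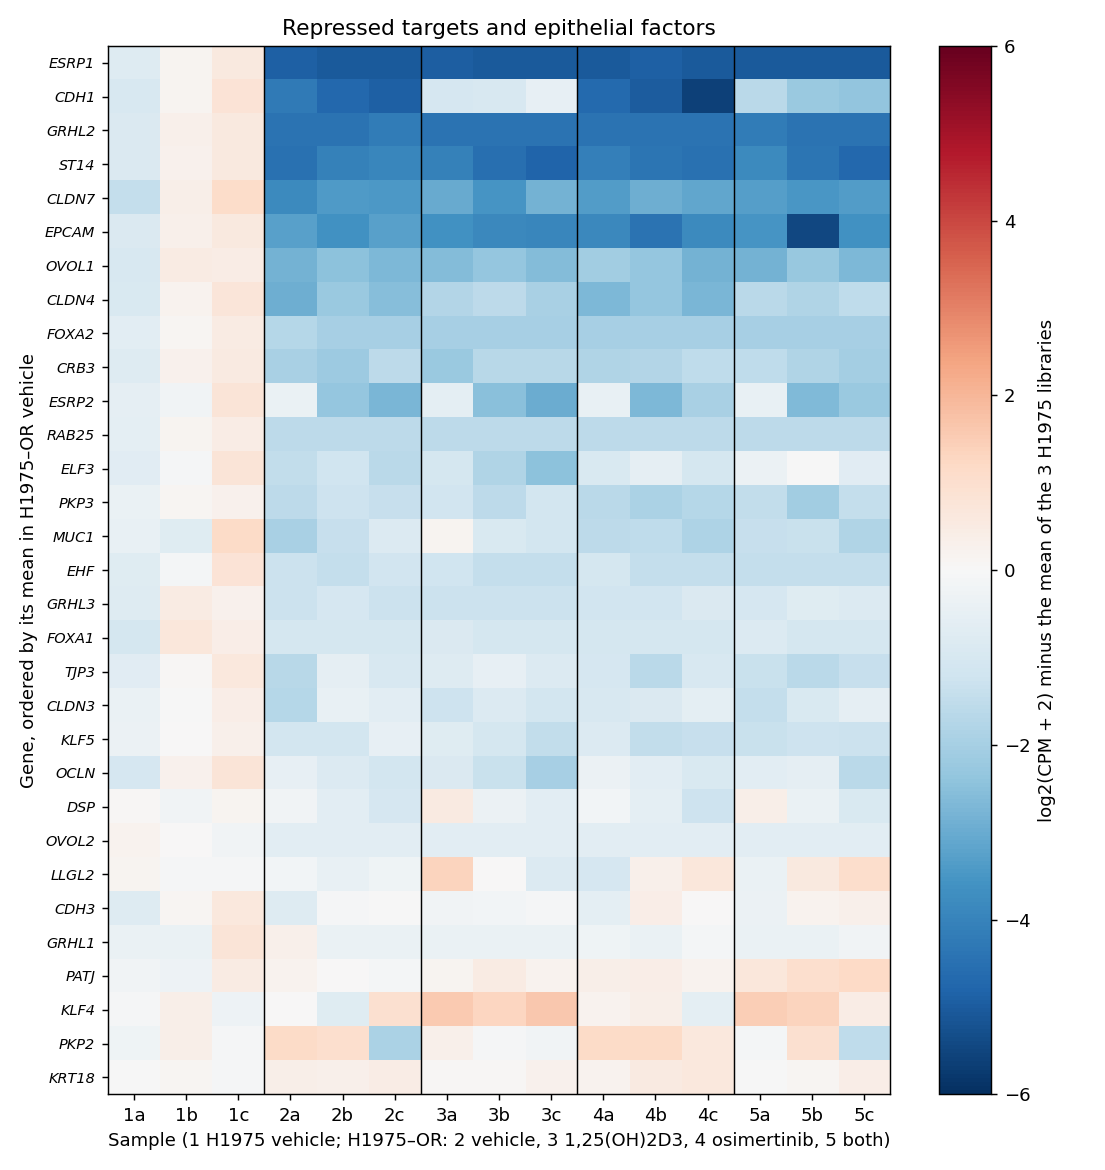
Heat map of log2(CPM + 2) minus the mean of the 3 H1975 libraries, for the genes listed as repressed by these factors and the epithelial transcription and splicing factors (rows) in 15 libraries (columns). Blue is lower and red higher than H1975. ESRP1, GRHL2, and ST14 are low in all 12 H1975–OR libraries, whereas CDH1 is paler in Samples 3a, 3b, and 3c, at 105.9 to 151.7 CPM, and in Samples 5a, 5b, and 5c, at 39.6 to 68.0 CPM.

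Mesenchymal genes did not move as 1 group between the lines. Of 20 listed, 17 were tested, 7 were higher and 5 lower in H1975–OR (70.6% called, beside 20.1% of all genes), with a median log2 fold change of 0.47. SPARC, a matrix-binding glycoprotein, went from 131.1 ± 41.2 to 802.8 ± 236.2 CPM (log2 fold change 2.63, adjusted p = 0.000951), and S100A4 and TNC (tenascin C) also rose, by 1.39 and 1.29 on the log2 scale. COL3A1, a fibrillar collagen, had 0 to 3 counts in H1975 and 84 to 428 in vehicle-treated H1975–OR, so higher was the only direction open to it. FN1, which encodes fibronectin, was lower, at 712.2 ± 227.4 and 56.2 ± 8.10 CPM (log2 fold change −3.65, adjusted p = 0.000151), as were COL1A2, ITGA5 (the fibronectin receptor subunit), and LOX (a collagen cross-linking enzyme), by −3.53, −1.89, and −0.79. In the 1,25(OH)2D3 comparison 2 of 17 were called, beside 0.152% of all genes. They were COL1A1 (log2 fold change 3.72, adjusted p = 0.00741) and LOX (log2 fold change 2.09, adjusted p = 0.00741), both higher. COL1A1 was 152.1 and 99.4 CPM in Samples 3b and 3c and 554.8 CPM in the omitted Sample 3a, and LOX was 130.4, 137.7, and 177.5 CPM. With Sample 3a kept in, the log2 fold change of COL1A1 was 4.83 (adjusted p = 0.0307). The COL1A1 call was lost under the block (adjusted p = 0.0574) and the LOX call without Sample 3c (adjusted p = 0.0592). When 1,25(OH)2D3 was added to osimertinib, COL1A1 alone was called, as 1 of 17 (log2 fold change 2.68, adjusted p = 0.0256), beside 0.096% of all genes. It was not called without Sample 4a, 4c, 5b, or 5c (adjusted p of 0.0895, 0.139, 0.121, and 0.0560), with Sample 3a kept in (0.366), or in the compared groups alone (0.157). The block also called LOX, beside 23 higher and 10 lower among all 12503 genes tested. With both agents against vehicle, COL1A1, LOX, and FN1 were higher (log2 fold changes 3.44, 1.98, and 1.46). These were 3 of 17 tested, beside 0.496% of all genes. With the block 5 of 17 were higher and 2 lower, beside 283 higher and 178 lower among all 12503 genes tested. COL1A1 was not called without Sample 2c (adjusted p = 0.0569) or with Sample 3a kept in (0.0506), and LOX was not without Sample 2b or 2c (0.0695 and 0.0840) or in the compared groups alone (0.0633). FN1 was not called without any 1 of the 6 libraries, with Sample 3a kept in (0.0947), or in the compared groups alone (0.148).

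Of 15 other transcription factors tied to EMT, 10 were tested between the lines, and 1 was higher and 2 were lower (30% called, beside 20.1% of all genes). PRRX1 had 0 to 1 counts in H1975 and 4 to 17 in vehicle-treated H1975–OR, so higher was the only direction open to it. Its call was lost without Sample 1a, 1b, 1c, or 2c (adjusted p up to 0.0894). SOX9 was lower (38.9 ± 13.97 and 12.3 ± 0.478 CPM, log2 fold change −1.64, adjusted p = 0.00469), as was FOSL1, an AP-1 subunit (69.9 ± 4.401 and 27.6 ± 6.58 CPM, log2 fold change −1.32, adjusted p = 0.00412). No gene of this list was called in the 5 treatment comparisons.

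Proteins that work with these factors were compared in the same way. Of 20 corepressors, helix-loop-helix partners, and SMADs, 19 were tested, 4 were higher and 2 lower between the lines (31.6% called, beside 20.1% of all genes). AJUBA, a LIM protein that binds Snail proteins (log2 fold change 0.71, adjusted p = 0.00292), ID4, HDAC2, and SMAD4 were higher, and the Polycomb methyltransferase EZH2 (log2 fold change −1.16, adjusted p = 0.00538) and HDAC1 were lower. Of 14 ligases, kinases, phosphatases, and related proteins that set the stability of these factors, 2 were higher and none was lower. That is 14.3% called, fewer than the 20.1% of all genes. The 2 were USP9X (a deubiquitinase) and ATM (a kinase of the DNA damage response), by 0.47 and 0.67 on the log2 scale. Of 15 genes tested from a list of upstream inducers, 2 were higher and 2 lower (26.7% called, beside 20.1% of all genes). INHBA, an activin subunit, went from 3.30 ± 3.89 to 46.1 ± 4.36 CPM (log2 fold change 3.77, adjusted p = 0.00412), and WNT5A, a noncanonical Wnt ligand, from 2.05 ± 0.962 to 11.4 ± 1.20 CPM (log2 fold change 2.48, adjusted p = 0.00468). HIF1A (log2 fold change −0.44, adjusted p = 0.0481) and TGFBI (log2 fold change −1.03, adjusted p = 0.00214) were lower. TGFBI was counted in this list although it is a gene induced by TGFβ. The calls of SMAD4 and HIF1A held in 4 of 14 alternative analyses each, and those of HDAC1, USP9X, and ID4 in 8, 9, and 10, with adjusted p reaching 0.151, 0.168, 0.107, 0.0855, and 0.106. Without Sample 1b, ATM and HDAC2 had adjusted p of 0.0521 and 0.0556. In the treatment comparisons no gene of these 3 lists was called by edgeR's quasi-likelihood test without the block. DESeq2 called INHBA with both agents against osimertinib, where 46 of all 12503 genes tested were higher and 20 lower. With both agents against vehicle, DESeq2 called INHBA, NOTCH2, ID2, and LOXL2, where 230 of all genes were higher and 134 lower. With the block, osimertinib against vehicle gave ID2 (higher), beside 23 higher and 12 lower among all genes tested. Both agents against vehicle gave 2 of 19 partner genes (ID2 and LOXL2, both higher) with the block. The same fit gave 5 of 15 upstream genes, 3 higher and 2 lower. Among all 12503 genes it called 283 as higher and 178 as lower.

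The estimated counts of ZEB1 and ZEB2 were fractional in 15 of 15 libraries, at a tolerance of 0.01, while those of SNAI1 and SNAI2 were whole. In the GENCODE release 44 transcripts, 387 of 9101 stretches of 31 bases in ZEB1 (4.25%) and 1460 of 26656 in ZEB2 (5.48%) also occurred in transcripts of other genes on either strand, most of them in the antisense genes ZEB1-AS1 and ZEB2-AS1. For SNAI1 and SNAI2 these shares were 0.418% and 1.95%. Neither antisense gene was analysed here, and whether the quantification used strand is not given in the sources used here, so reads shared between a ZEB gene and its antisense gene cannot be told apart.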

How the data were processed

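RNA from 3 passages per condition was made into stranded, rRNA-depleted total RNA libraries (paired-end, NextSeq500). The authors quantified the reads with Kallisto against hg38 and summed transcripts to genes with tximport, so the deposited values are estimated counts per gene, which were taken here as unscaled. The submitters' processing notes name CASAVA 1.8.2, STAR 2.5.2b, kallisto 0.43.0, and GRCh38. The transcript annotation, the tximport settings, and the use of strand are not given in the sources used here.

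After rounding, edgeR 4.0.16 in R 4.3.3 was used (filterByExpr with a minimum count of 10 and minimum total of 15, TMM scaling, the quasi-likelihood test with Benjamini-Hochberg adjustment, threshold 0.05). One fit held 8 libraries (H1975, H1975–OR vehicle, and 1,25(OH)2D3) and 12513 genes, and another the 11 H1975–OR libraries and 12503 genes. Sample 3a was left out of both, as in the study. Depth and SD between libraries set the precision, and p-values measure the spread between these cultures of the line. A floor is 3 counts per library. DESeq2 1.42.0 and other settings were tried as alternatives.

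In the vehicle, osimertinib, and both-agent arms of H1975–OR, libraries with the same replicate letter deviated together. Correlations were 0.12 to 0.31 between osimertinib and vehicle, 0.26 to 0.46 between both agents and osimertinib, and 0.12 to 0.34 between both agents and vehicle. That of Samples 2b and 5b, 0.118, was little above 0.105, the best of Sample 2b with another letter of both agents. The letters were taken to pair those samples from the data. Libraries with the same letter did not deviate together between H1975 and H1975–OR (−0.030 to 0.021). With 1,25(OH)2D3, Samples 3b and 3c gave 0.068 and 0.107 with vehicle, −0.00092 and 0.107 with both agents, and 0.0052 and 0.154 with osimertinib. Sample 3b reached 0.102 with another letter of both agents and 0.124 with another letter of osimertinib.

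The factors, the gene lists (from general knowledge), and the tests were chosen with earlier results of these data known. From each list and comparison, up to 4 called genes per direction with the smallest p were named. RAB25, CLDN7, and CRB3, shown by sequence, were added after their values were seen. For each factor, the 2 genes with the highest Pearson r were named. Positions follow GENCODE release 44 (GRCh38), and promoter and microRNA sequences follow RefSeq (GRCh38.p14).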

Additional observations from a re-analysis of the deposited data

Results flagged for a closer look

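The levels of ZEB1 with 1,25(OH)2D3 lay on opposite sides of the mean of their comparison group in the absence and in the presence of osimertinib. Samples 3b and 3c (11.8 and 27.3 CPM) both lay below the mean of vehicle (30.7 ± 20.9 CPM, SD, n = 3), whereas Samples 5a, 5b, and 5c (18.8, 29.4, and 22.6 CPM) all lay above the mean of osimertinib alone (13.6 ± 11.9 CPM, SD, n = 3). Neither change passed the test, the ranges overlapped in both comparisons, and vehicle Sample 2a (9.41 CPM) lay below Samples 3b and 3c. The difference of the effects was 1.43 on the log2 scale (95% interval −0.82 to 3.69) and was not called by edgeR's quasi-likelihood test (adjusted p = 0.999999, unadjusted p = 0.187). Over its 18 alternatives the value lay between 0.85 and 2.43 and the adjusted p was never below 0.970.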

How the results depend on the processing

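ZEB2 between the lines kept its call in all 14 alternatives (adjusted p 1.85e-15 to 0.00363). ZEB1 kept it in 7 of 13, since it was not tested with at least 10 counts in every library, SNAI2 in 12 of 14, and SNAI1 in 4 of 14. The number of the 4 factors called there was 2 with Sample 3a kept in, with the replicate block, and with all 14 libraries in one fit, and 1 to 4 with a library left out. In the 5 treatment comparisons no factor was called under any alternative (0 to 0 with a library left out). The cause of these shifts was not tested.

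Between the lines, 1636 genes changed with Sample 3a kept in, and 1426 to 2835 with a library left out. For 1,25(OH)2D3 against vehicle, 124 changed by DESeq2, 32 without the filter, 29 with at least 10 counts, 9 with the replicate block, 29 with 14 libraries, 9 in the compared groups alone, and 5 to 18 with a library left out. For osimertinib against vehicle, the numbers were 117 by DESeq2, 35 with the block, 12 with 14 libraries, 2 in the compared groups alone, and 1 to 29 with a library left out. For both agents against osimertinib, they were 66 by DESeq2, 5 with Sample 3a, 33 with the block, 2 in the compared groups alone, and 3 to 9 with a library left out. For both agents against vehicle, they were 364 by DESeq2, 25 with Sample 3a, 461 with the block, 98 with 14 libraries, 8 in the compared groups alone, and 4 to 110 with a library left out. For the difference of effects, they were 11 by DESeq2 and 0 to 1 with a library left out. That comparison uses all groups of its fit, so it was not run on the compared groups alone.

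Signs turned only where a factor was not called. With 1,25(OH)2D3 the log2 difference of ZEB2 was 0.0014 without the filter, 0.017 with Sample 3a, and 0.00022 with the replicate block, and the SNAI2 difference of effects was −0.057 with the block. With a library left out, the ranges were −0.066 to 0.068 for ZEB2 and −0.25 to 0.011 for SNAI2 with 1,25(OH)2D3, and −0.19 to 0.030 for SNAI1 with osimertinib. They were −0.46 to 0.70 for SNAI2 on adding 1,25(OH)2D3 to osimertinib, and −0.81 to 0.20 for ZEB1, −0.083 to 0.060 for ZEB2, and −0.89 to 0.043 for SNAI2 with both agents against vehicle. In the difference of effects they were −0.79 to 0.029 for SNAI1 and −0.37 to 0.78 for SNAI2.

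The factors had 6 to 248 counts per library. In vehicle-treated H1975–OR, ZEB1 and ZEB2 had counts of like size, and their coefficients of variation were 68.2% and 9.41%.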

Other observations

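SNAI2 was highest in the library lettered a in 4 of the 4 H1975–OR conditions, at 10.4, 10.0, 10.7, and 13.6 CPM in Samples 2a, 3a, 4a, and 5a. ZEB1 was lowest in the library lettered a in 3 of the 4 conditions, at 9.41, 4.29, and 18.8 CPM in Samples 2a, 3a, and 5a. The letter order was noticed in the values and has no test.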
